A study of Rattus norvegicus with 4 samples.

Results

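The Wnt feedback inhibitors examined here are a list of 10 genes grouped as inhibitors of Wnt signaling: Axin2, Dkk1, Dkk2, Dkk3, Nkd1, Nkd2, Rnf43, Znrf3, Wif1 and Apcdd1. Members were all probe sets of the rat array that the platform's gene table pairs with 1 of these symbols, current or older. This gave 13 of the 31042 probe sets tested, which cover 8 of the 10 genes. Dkk1 and Rnf43 have no probe set in that table and were not analysed here. Dkk3 has 4 probe sets, Nkd1 has 3, and the other 6 genes have 1 each, so probe sets of 1 gene are not independent of each other.

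Expression was measured in primary cardiomyocytes from Sprague-Dawley rats of 1 to 2 days of age, prepared from ventricular myocardium. The cells were infected for 24 hours, in medium without serum, with a virus for atrogin-1 together with GFP (Ad-atrogin-1, 2 arrays) or with a GFP-only adenovirus (Ad-GFP, 2 arrays). Both groups therefore received virus and GFP, and uninfected cells were not analysed here. Atrogin-1 is a muscle F-box protein, the substrate-binding part of a ubiquitin ligase, and the virus supplied it here in addition to the product of the cells' own gene. In the labels the replicates are biological, but no cultures are named, so p-values measure the spread between these arrays.

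Canonical Wnt signaling starts when a secreted Wnt protein joins a Frizzled receptor to its coreceptor Lrp5 or Lrp6. The complex that marks beta-catenin for destruction is then held back, beta-catenin enters the nucleus, and it activates genes together with TCF and LEF factors. Several of the genes activated in this way encode inhibitors that act back on the pathway, and Axin2 is widely used as a reporter of it. In the heart the pathway is known for its role in development, where it is needed at some stages and must be kept low at others.

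The inhibitors act at different steps. Dkk1 and Dkk2 are secreted and bind Lrp5 and Lrp6, whereas Dkk3 is a divergent relative. Wif1 is secreted and binds Wnt proteins, and Apcdd1 is a membrane glycoprotein that binds Wnt and its coreceptor. Rnf43 and Znrf3 are membrane ubiquitin ligases that remove Frizzled receptors from the cell surface. Nkd1 and Nkd2 bind Dishevelled, the protein that passes the signal on inside the cell, and Axin2 is a scaffold of the complex that destroys beta-catenin.

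Each probe set has 1 log2 signal per array, and the array medians lay between 5.51 and 5.52. The lower quartile of the signals was 3.88 to 3.94 on the 4 arrays. No background level was estimated, so the fold change of a probe set with signals under that quartile is not an exact size. A probe set was called at an adjusted p under 0.05 from limma and a change of at least 2-fold. Fbxo32, the gene of atrogin-1, checks the infection. Its 1 probe set read 13.55 and 13.47 in Ad-atrogin-1 and 5.24 and 5.04 in Ad-GFP, and it does not separate viral RNA from RNA of the cells' own gene.

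Of the 13 member probe sets, 3 were called higher in Ad-atrogin-1 cardiomyocytes and 0 lower, against 0.248% higher and 0.0258% lower among all probe sets. They belong to Axin2, Dkk2 and Nkd1. The list was chosen with earlier results of these data known, so the shares given here describe it and do not test it. The 0 lower calls come from limma, and no member probe set with a lower mean had an unadjusted p under 0.05 either. An unadjusted p under 0.05 was found at 7 of the 13, all higher, and at 11.2% of all probe sets in either direction. The median log2 fold change of the 13 probe sets was 0.46, beside -0.012 over all probe sets. Both Ad-atrogin-1 arrays lay above both Ad-GFP arrays at 9 member probe sets, which compares with 18.3% of all probe sets, and below them at 0, which compares with 22.1%. At the other 4 the groups overlapped. The cardiomyocyte markers moved the same way, with a median log2 fold change of 0.39 over 22 probe sets, of which 14 separated the groups upward in Ad-atrogin-1 and 2 downward, and their part in the values of the inhibitors was not tested. In such cultures less RNA per cell and fewer cells of a type cannot be told apart. With 2 arrays in each group an exact permutation test of a single probe set cannot go below p = 0.333 (two-sided), so single probe sets were tested with limma, fitted across all probe sets, unless another test is named.

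**Figure D1:**
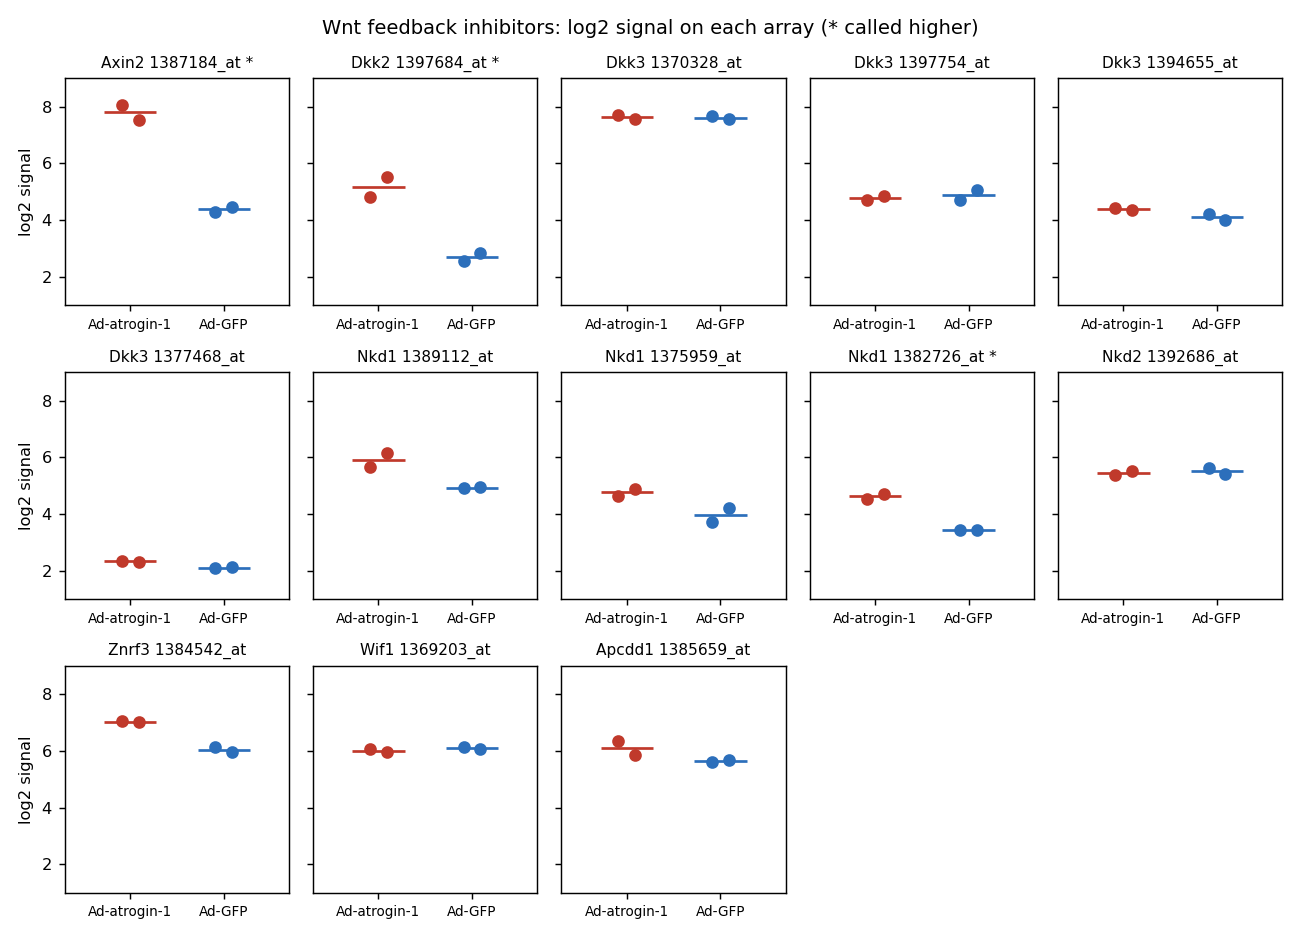
Log2 signal (vertical axis) of each of the 13 member probe sets on the 2 Ad-atrogin-1 arrays (red, left) and the 2 Ad-GFP arrays (blue, right), with a line at each group's mean and an asterisk on the 3 probe sets called higher. Axin2 and Dkk2 are set far apart between the groups, the 3 Nkd1 probe sets and Znrf3 by less, and the points of Nkd2 and Wif1 lie together.

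Axin2, the scaffold of the destruction complex, changed most among the members. Its probe set (1387184_at) read 8.05 and 7.55 on the Ad-atrogin-1 arrays, against 4.29 and 4.47 on the Ad-GFP arrays. The groups were 3.08 apart at their nearest values, more than the 0.50 between the Ad-atrogin-1 arrays and the 0.18 between the Ad-GFP arrays. Axin2 was 10.7-fold higher, with a 95% interval of 7.65-fold to 14.9-fold (adjusted p = 0.00965, limma). In size of increase it ranked at place 6 of the 31042 probe sets. Its signal stood above 84.1% and 78.5% of the probe sets on the Ad-atrogin-1 arrays, and above 31.1% and 33.8% on the Ad-GFP arrays.

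Among the secreted members, Dkk2 was called and no probe set of Dkk3 or Wif1 was. The Dkk2 probe set (1397684_at) read 4.80 and 5.52 in Ad-atrogin-1 and 2.56 and 2.84 in Ad-GFP cardiomyocytes. The groups did not overlap, and both Ad-GFP values lay under the lower quartile of their arrays, at the dimmest 4.62% and 8.12%. Dkk2 was 5.51-fold higher (95% interval 3.53-fold to 8.59-fold, adjusted p = 0.0435, limma) and ranked at place 16 by increase. The difference of 0.73 between its 2 Ad-atrogin-1 arrays was the widest within a group among the members.

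Dkk3 stood in contrast to Dkk2 in its values, although the difference between the genes was not tested. Its brightest probe set (1370328_at) read 7.71 and 7.56 in Ad-atrogin-1 and 7.66 and 7.57 in Ad-GFP, so the groups overlapped. The log2 fold change was 0.02 with a 95% interval of -0.29 to 0.33, which leaves out changes of 2-fold in either direction. The other 3 Dkk3 probe sets had log2 fold changes of -0.11 (1397754_at), 0.28 (1394655_at) and 0.22 (1377468_at). Of these, 1394655_at and 1377468_at were higher on both Ad-atrogin-1 arrays, with adjusted p = 0.506 and 0.546 (limma). The probe set 1377468_at lay under the lower quartile on all 4 arrays.

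Wif1, the secreted Wnt-binding protein, read 6.06 and 5.97 in Ad-atrogin-1 and 6.16 and 6.06 in Ad-GFP. The nearest values of the groups were the same, the log2 fold change was -0.10 (95% interval -0.40 to 0.20), and the adjusted p was 0.835 (limma). Apcdd1, the membrane inhibitor, read 6.34 and 5.86 in Ad-atrogin-1 and 5.60 and 5.68 in Ad-GFP. Both Ad-atrogin-1 values were the higher ones, but they differed from each other by 0.48, and the nearest values of the groups by 0.18. Apcdd1 did not pass (log2 fold change 0.46, 95% interval 0.01 to 0.92, adjusted p = 0.442, limma).

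Znrf3, the ubiquitin ligase that removes Frizzled receptors, came close to both limits of a call and met neither. Its signals were 7.06 and 7.01 in Ad-atrogin-1 cardiomyocytes, against 6.14 and 5.96 in Ad-GFP. The groups were 0.88 apart at their nearest values, and the arrays within a group differed by 0.05 and 0.17. The fold change was 1.98 (95% interval 1.60 to 2.45) and the adjusted p was 0.0661 (limma). Of the probe sets just outside the limits of a call among the members it was the nearest, and the Nkd1 probe set described next was the nearest inside.

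Nkd1 and Nkd2, the partners of Dishevelled, gave different readings. The Nkd1 probe set 1382726_at read 4.53 and 4.71 in Ad-atrogin-1 and 3.44 and 3.45 in Ad-GFP, with both Ad-GFP values under the lower quartile. It was 2.25-fold higher (95% interval 1.82-fold to 2.78-fold, adjusted p = 0.0439, limma). The brighter Nkd1 probe sets were not called. One of them, 1389112_at, read 5.65 and 6.15 in Ad-atrogin-1 and 4.92 and 4.94 in Ad-GFP (1.95-fold, adjusted p = 0.148, limma). The other, 1375959_at, read 4.65 and 4.88 in Ad-atrogin-1 and 3.73 and 4.20 in Ad-GFP (1.74-fold, adjusted p = 0.233, limma). All 3 separated the groups in the same direction, and their 95% intervals on the log2 scale, 0.87 to 1.48, 0.50 to 1.43 and 0.32 to 1.28, overlap.

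Nkd2 had signals of 5.38 and 5.52 in Ad-atrogin-1 and 5.61 and 5.42 in Ad-GFP. The groups overlapped, with a log2 fold change of -0.07 (95% interval -0.40 to 0.26, adjusted p = 0.914, limma). Whether Nkd1 and Nkd2 differ in their change was not tested.

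**Figure D2:**
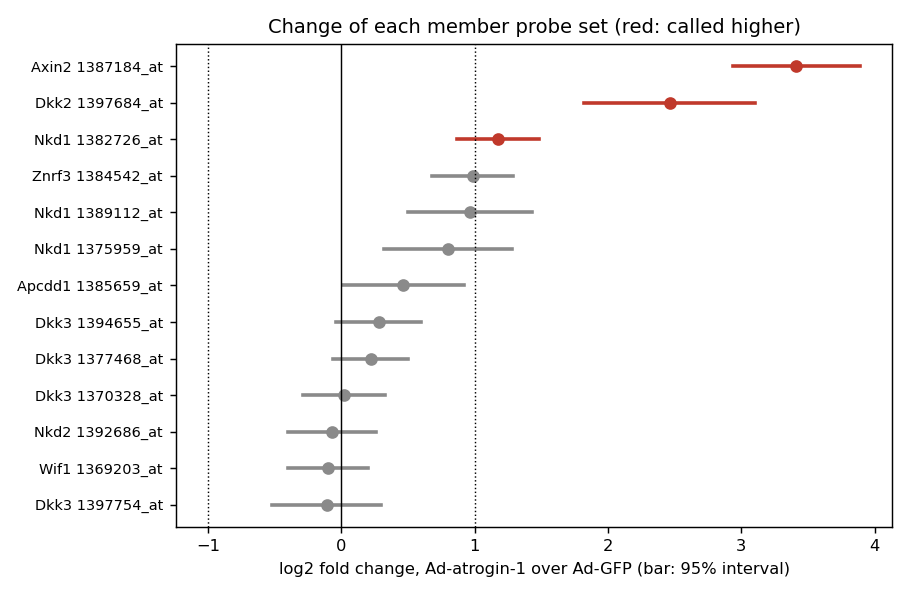
Log2 fold change (horizontal axis, Ad-atrogin-1 over Ad-GFP) of each member probe set with its 95% interval from limma, called probe sets in red and 2-fold marked by dotted lines. The intervals of Axin2 and Dkk2 lie wholly beyond 2-fold, the 3 Nkd1 probe sets and Znrf3 have intervals that span it, and the probe sets of Dkk3, Nkd2 and Wif1 have intervals that include 0.

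When each gene was represented by its brightest probe set and p was adjusted over 14217 genes, Axin2 (adjusted p = 0.00663) and Dkk2 (0.0341) were called and Nkd1 was not (0.112, limma), against 0.457% of all genes called higher. Znrf3 then had an adjusted p of 0.0516. With the probe sets of a gene averaged, Znrf3 had an adjusted p of 0.0391 and Nkd1 of 0.0654, with log2 fold changes of 0.99 and 0.98, just under the 1 that a call needs. On all 4 arrays the 3 calls ended with the replicate number as a block (adjusted p = 0.119 for Axin2, 0.124 for Dkk2 and 0.181 for Nkd1, limma). That fit called 1 of the 31042 probe sets higher and 0 lower. The calls also ended with an equal-variance t-test of the 2 means on each probe set. Its adjusted p was 0.5, 0.549 and 0.5 in the same order (Benjamini-Hochberg). That t-test called 0 of all probe sets, with a smallest adjusted p of 0.363. A call lost there is therefore not particular to these members. All 3 called probe sets also lost their call when any 1 array was left out, a fit in which limma called 0 of the 31042 probe sets. Their log2 fold changes then ranged over 3.17 to 3.66 for Axin2, 2.10 to 2.83 for Dkk2 and 1.08 to 1.26 for Nkd1, and 6 of the 13 member probe sets had an unadjusted p under 0.05 in each such fit, against 7.89% to 9.19% of all probe sets.

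**Figure D3:**
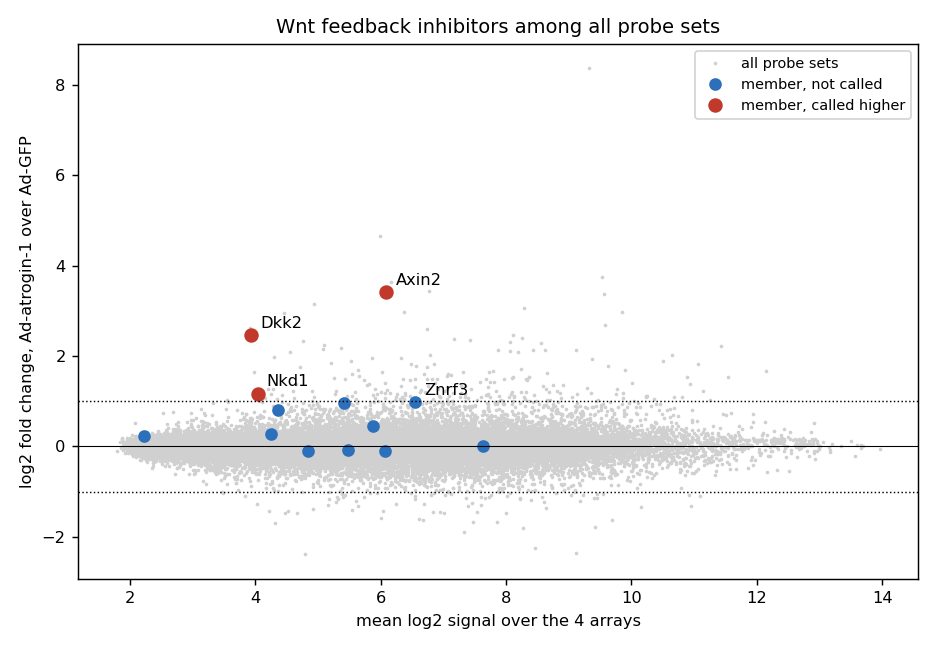
Log2 fold change (vertical axis, Ad-atrogin-1 over Ad-GFP) of all 31042 probe sets against the mean signal of each (horizontal axis, log2, 4 arrays), with the 13 member probe sets as large points, called ones in red. Axin2 at 3.41 and Dkk2 at 2.46 lie clear of the grey cloud, whereas Nkd1 at 1.17 and Znrf3 at 0.99 lie near its upper edge; dotted lines mark 2-fold.

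The promoters of Axin2 and Nkd1 are shown because both genes had a called probe set and both windows hold a sequence that TCF and LEF factors are known to bind. The windows span 250 bases before to 50 after the start of the gene in RefSeq (build GRCr8), Axin2 on the plus strand at chr10:94398535-94398834 and Nkd1 on the minus strand at chr19:34722797-34723096. Capitals mark CTTTGAA in the Axin2 window and CTTTGAT in both windows.
Axin2: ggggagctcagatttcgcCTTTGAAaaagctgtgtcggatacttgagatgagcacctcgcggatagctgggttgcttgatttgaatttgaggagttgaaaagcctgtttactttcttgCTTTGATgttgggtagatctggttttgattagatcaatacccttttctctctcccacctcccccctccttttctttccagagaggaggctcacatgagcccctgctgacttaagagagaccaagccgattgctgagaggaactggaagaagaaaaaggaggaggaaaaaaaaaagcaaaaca
Nkd1: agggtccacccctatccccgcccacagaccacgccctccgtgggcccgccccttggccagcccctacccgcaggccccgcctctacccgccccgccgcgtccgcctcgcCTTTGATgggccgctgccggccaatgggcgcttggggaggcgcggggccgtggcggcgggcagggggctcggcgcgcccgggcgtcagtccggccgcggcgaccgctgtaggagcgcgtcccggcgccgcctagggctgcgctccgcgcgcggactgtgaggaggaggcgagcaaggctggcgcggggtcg
Of all 33469 promoter windows, searched on both strands, 5.40% held the spelling CTTTGAA, 3.63% the spelling CTTTGAT, 3.68% the spelling CTTTGTA and 5.98% the spelling CTTTGTT. At least 1 of these 4 was found in 17.1%. No 2 matches in the Axin2 window overlap. In Axin2 the matches begin 232 and 132 bases before the start, and in Nkd1 the match begins 141 bases before it. Windows of 7 members were read, and 3 held a match, those of Axin2, Nkd1 and Dkk1, which has no probe set. Those of Nkd2, Rnf43, Wif1 and Apcdd1 held none, which says only that these letters do not occur there. Windows of Dkk2, Dkk3 and Znrf3 were not used. The Nkd1 window is rich in G and C, at 79.3%, and the Axin2 window holds 45.7%. A match is a description of the sequence and does not show binding in these cells.

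Around the inhibitors, 6 other lists of the Wnt pathway with 90 measured genes and 153 probe sets gave 4 calls, all higher. In the core of the pathway, 1 of 37 probe sets of Dishevelled and destruction complex genes was called, against 0.248% of all probe sets, and it belongs to Ctnnb1, the gene of beta-catenin. That probe set (1369733_at) read 11.32 and 11.34 in Ad-atrogin-1 and 8.34 and 8.39 in Ad-GFP, 7.82-fold higher (adjusted p = 0.0027, limma). The other 3 Ctnnb1 probe sets were not called. The bright probe set 1373067_at read 11.27 and 11.36 in Ad-atrogin-1 and 11.34 and 11.26 in Ad-GFP. The bright probe set 1373470_at had a log2 fold change of 0.00 (95% interval -0.29 to 0.28). The dim probe set 1375284_at read 4.55 and 5.29 in Ad-atrogin-1 and 3.68 and 3.62 in Ad-GFP (log2 fold change 1.28, adjusted p = 0.150, limma). The gene table pairs 1369733_at with a RefSeq mRNA of Ctnnb1 and the other 3 with other GenBank sequences. Which part of the transcript each probe set reads was not analysed here, so whether Ctnnb1 RNA as a whole changed is not given by these values.

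Among 24 probe sets of TCF and LEF factors and their cofactors 2 were called higher and 0 lower. Among all probe sets the shares were 0.248% and 0.0258%. Both calls belong to Lef1, a transcription factor that partners beta-catenin. The Lef1 probe set 1370138_at read 7.22 and 7.36 in Ad-atrogin-1 and 5.73 and 5.86 in Ad-GFP, 2.83-fold higher (adjusted p = 0.0246, limma). Its other probe set, 1383785_at, was 2.40-fold higher (adjusted p = 0.0404, limma). Tcf7, a factor of the same family that was chosen after its values were seen, read 6.14 and 6.52 in Ad-atrogin-1 and 4.92 and 4.56 in Ad-GFP (log2 fold change 1.60, adjusted p = 0.0593, limma). Tle1, a corepressor gene chosen in the same way, read 5.98 and 6.39 in Ad-atrogin-1 and 5.03 and 4.95 in Ad-GFP (log2 fold change 1.20, adjusted p = 0.0782, limma). The median over this list was -0.06.

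Of 28 probe sets of other known Wnt target genes, 1 was called higher and 0 lower, against 0.248% and 0.0258% of all probe sets. It was that of the receptor gene Tnfrsf19, with signals of 6.29 and 6.01 in Ad-atrogin-1 and 4.15 and 3.85 in Ad-GFP (4.44-fold, adjusted p = 0.023, limma). Uncalled increases of over 2-fold were seen at 2 of the 3 probe sets of Msx2, a homeobox gene, and at 1 of Fgf9, a growth factor gene, chosen after their values were seen. The Msx2 probe set 1391953_at read 6.97 and 7.61 in Ad-atrogin-1 and 5.25 and 5.43 in Ad-GFP (log2 fold change 1.96, adjusted p = 0.0561, limma), and 1369880_at had a log2 fold change of 1.48 (adjusted p = 0.107). The Fgf9 probe set 1392865_at read 6.83 and 6.64 in Ad-atrogin-1 and 5.46 and 5.64 in Ad-GFP (log2 fold change 1.19, adjusted p = 0.0561, limma). The list as a whole had a median log2 fold change of 0.02. The groups were separated upward in Ad-atrogin-1 at 11 of its 28 probe sets and downward at 7. Among all probe sets those shares were 18.3% and 22.1%. Values in the list ran down to -0.52, that of the cyclin gene Ccnd1, which was also chosen after its values were seen.

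In the lists upstream of the inhibitors no probe set was called by limma, against 0.248% higher and 0.0258% lower among all probe sets. In lists of this size, no call is near that share. Among 17 probe sets of Wnt ligands the median log2 fold change was -0.07. The lowest adjusted p, 0.249, was that of a Wnt11 probe set (1395594_at), chosen after its values were seen, which read 6.04 and 6.97 in Ad-atrogin-1 and 5.43 and 4.82 in Ad-GFP (log2 fold change 1.38). The groups did not overlap there, but the arrays within each differed widely. The brightest ligand, Wnt1, read 6.40 and 6.75 in Ad-atrogin-1 and 6.47 and 6.58 in Ad-GFP. The other bright ligand, Wnt6, had a log2 fold change of -0.17 (95% interval -0.60 to 0.25). Among 21 probe sets of receptors and R-spondins the median was -0.11 and the lowest adjusted p 0.287. The Wnt receptor gene Fzd1 read 10.63 and 10.25 in Ad-atrogin-1 and 9.93 and 9.76 in Ad-GFP (adjusted p = 0.287), and Ryk, a coreceptor, had a log2 fold change of 0.01 (95% interval -0.29 to 0.31).

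The Wnt inhibitors outside the 10 members gave 0 calls of 26 probe sets, with a median log2 fold change of -0.03. Among all probe sets 0.248% were called higher and 0.0258% lower, so 0 of 26 is near the share over all. Sfrp1, a secreted Wnt-binding protein, read 8.77 and 8.51 in Ad-atrogin-1 and 8.72 and 8.62 in Ad-GFP at its brightest probe set (95% interval of the log2 fold change -0.38 to 0.31). Ctnnbip1, which blocks beta-catenin from its TCF partners, had a log2 fold change of 0.09 (95% interval -0.25 to 0.43) at its brightest. The widest change in this list was that of Dact2, a Dishevelled-binding protein gene chosen after its values were seen, with 5.60 and 5.02 in Ad-atrogin-1 and 6.78 and 6.71 in Ad-GFP (log2 fold change -1.44, adjusted p = 0.0834, limma). Over these 6 lists 32 of the 153 probe sets (20.9%) had an unadjusted p under 0.05, against 11.2% of all probe sets. Probe sets that changed by at least 2-fold without a call numbered 7 higher and 1 lower.

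**Figure D4:**
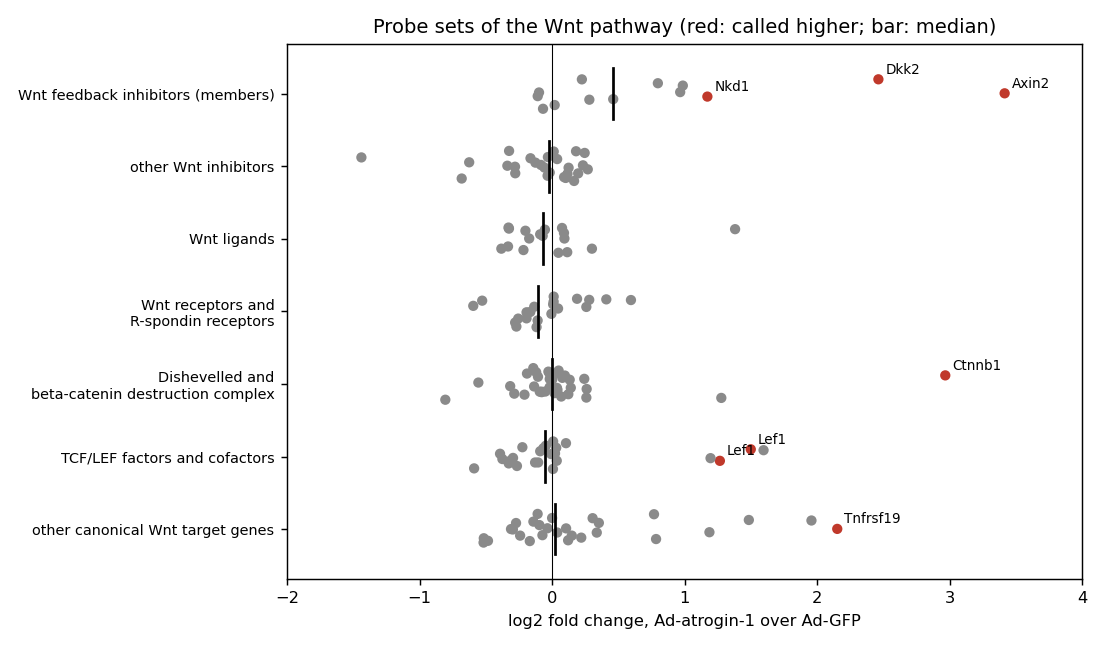
Log2 fold change (horizontal axis, Ad-atrogin-1 over Ad-GFP) of each probe set of the Wnt feedback inhibitors and of 6 other Wnt pathway lists (rows), called probe sets in red and named, black bars at the list medians. The member list has its median at 0.46 and those of the other lists lie between -0.11 and 0.02; the red points outside the members are 1 of Ctnnb1, 2 of Lef1 and 1 of Tnfrsf19.

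The probe sets whose pattern lay nearest to that of Axin2 were sought by the Euclidean distance between the 4 log2 values, each centred on its own mean. Over these 4 arrays the nearest were Creld2 (distance 0.485), the somatostatin receptor gene Sstr2 (0.514), Pdia4 (0.527), Sdf2l1 (0.58) and the Ctnnb1 probe set 1369733_at (0.586). Creld2, Pdia4 and Sdf2l1 encode proteins of the endoplasmic reticulum. The log2 fold changes of the 5 lay between 2.97 and 3.76, beside 3.41 for Axin2, and the measure mostly reflects a difference between the groups of like size.

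Markers of cell types were read. All 11 measured cardiomyocyte markers were above the lower quartile at their brightest probe set on at least 1 array. So were all measured fibroblast (10), endothelial (8), smooth muscle and pericyte (8), epicardial and mesothelial (8) and Schwann and glial (4) markers. Such a limit therefore does not identify a cell type. Of the 22 cardiomyocyte probe sets 1 was called, 1 of 5 of the calcium pump gene Atp2a2 (log2 fold change 1.36, adjusted p = 0.0322, limma). Summed signals of cardiomyocyte markers (linear, brightest probe set of each gene) were 62000 and 48340 in Ad-atrogin-1 and 48510 and 52740 in Ad-GFP. These sums overlapped although most of the probe sets were higher in Ad-atrogin-1. Those of the fibroblast markers were 13430 and 12750 in Ad-atrogin-1 and 10510 and 13720 in Ad-GFP. Of 6 lists of markers of other cells, 5 had summed signals that overlapped between the groups. By limma 0 of the 60 probe sets of these lists were called, against 0.248% higher and 0.0258% lower among all probe sets. At those shares 0 calls among 60 does not show that the mix of cells was unchanged. Log2 fold changes ran from -0.50 to 0.98 among smooth muscle and pericyte markers and from -0.19 to 0.87 among endothelial markers. The 8 epicardial and mesothelial markers summed to 642.2 and 686.0 in Ad-atrogin-1 and to 550.6 and 476.9 in Ad-GFP. Without Krt19, which read 7.89 and 8.09 in Ad-atrogin-1 and 3.20 and 5.48 in Ad-GFP, the other 7 summed to 405.5 and 414.2 in Ad-atrogin-1 and to 541.4 and 432.2 in Ad-GFP. Krt19 itself was not called (log2 fold change 3.65, adjusted p = 0.141, limma), and 1 gene does not measure how many such cells there were. The part of epicardial and mesothelial cells in the values of the inhibitors was not tested.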

How the data were processed

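RNA from neonatal rat cardiomyocytes, 2 Ad-atrogin-1 and 2 Ad-GFP samples with 1 array each, was hybridized to Affymetrix rat genome arrays. The authors deposited a log2 value per probe set, computed by RMA in GeneSpring GX per the methods, and these values were not transformed further. After removal of 57 control probe sets, 31042 remained, and dim ones were kept. The platform table pairs 20826 with 1 gene, 436 with several and 9780 with none, and those last 2 kinds could not be members. The comparison used limma 3.58.1 under R 4.3.3, fitted without a block and tested on both sides (2 residual and 3.65 prior degrees of freedom), and the Benjamini-Hochberg adjustment covered all probe sets. Intervals are 95% intervals of the moderated fit, and the number of arrays limits their precision.

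The members and lists were chosen with earlier results of these data known. Named genes are all members, Fbxo32, in each other Wnt list up to 4 called genes or else the 2 brightest, and the 5 probe sets nearest to Axin2. Outside this rule, Tcf7, Tle1, Wnt11, Msx2, Fgf9, Ccnd1, Dact2, Atp2a2 and Krt19 were named after their values were seen. The alternatives were other normalizations, a filter on low signal, other priors and thresholds, and gene-level summaries. Also run were an equal-variance t-test of 2 means, the replicate number as a block and each array left out. For the arrays the paper gives a comparison of 2 means, without saying whether it took variances as equal. Promoter windows came from RefSeq, and figures were drawn with matplotlib 3.10.9.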

Additional observations from a re-analysis of the deposited data

How the results depend on the processing

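The 3 called members, Axin2, Dkk2 and Nkd1, kept their direction under all settings run on all 4 arrays. Over the 13 member probe sets these settings gave the same call in 134 cases and a lost call in 6. The lost calls came from the equal-variance t-test with adjusted p and from the replicate block. Adjusted p by that t-test was 0.5 for Axin2 (log2 fold change 3.41), 0.549 for Dkk2 (2.46) and 0.5 for Nkd1 (1.17). With the replicate block it was 0.119, 0.124 and 0.181 in the same order (limma), at the same log2 fold changes. Member probe sets called higher then numbered 0, and 1 of 7 tested in the upper 60% of probe sets by signal, where Dkk2 and the called Nkd1 probe set had been filtered out.

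With 1 array left out, log2 fold changes ranged over 3.17 to 3.66 for Axin2, 2.10 to 2.83 for Dkk2, 1.08 to 1.26 for the called Nkd1 probe set and 0.90 to 1.07 for Znrf3, and none was called (adjusted p 0.378 to 0.552 for the first 3). In these fits 0 probe sets of all were called higher and 0 lower, with 2449 to 2852 at an unadjusted p under 0.05. Directions turned in 4 such fits, all near 0: Dkk3 1370328_at between -0.06 and 0.10 (-0.06 without Ad-atrogin-1 replicate 1, -0.03 without Ad-GFP replicate 2), Dkk3 1397754_at between -0.30 and 0.08 (0.08 without Ad-GFP replicate 2) and Nkd2 between -0.16 and 0.03 (0.03 without Ad-GFP replicate 1).

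Over all probe sets, those called higher and lower numbered 77 and 8. By the equal-variance t-test they numbered 0 and 0 with adjusted p (2598 at unadjusted p under 0.05) and 158 and 33 with unadjusted p. They numbered 217 and 78 by limma with unadjusted p, 220 and 84 by 2-fold alone, and 1 and 0 with the replicate block. Lower calls were 14 with arrays centred, 14 after quantile normalization, 13 in the upper 60% and 13 with a gene's probe sets averaged. The labels do not say whether same-numbered arrays share a culture. The correlation of their deviations from the group means was 0.0432, which does not settle it. The causes of these differences were not tested unless stated.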

Other observations

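Some values were identical on 2 arrays to all deposited digits. At least 1 such pair was found at 1421 of 31042 probe sets (4.58%), and each pair of arrays shared 245 to 317 of them. Among the members this was so for Wif1, between Ad-atrogin-1 replicate 1 and Ad-GFP replicate 2, and for the Dkk3 probe set 1397754_at, between Ad-atrogin-1 replicate 1 and Ad-GFP replicate 1. Neither was called, and no called member had identical values.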
